A study of Prunus persica with 24 samples.

Results

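The expression of 3 genes of hormone synthesis was followed in the flesh of peach fruit (Prunus persica) during storage after harvest. They were taken by identifier from the deposited tables, which hold 26873 gene identifiers, of which 15420 passed a filter on low values. All 3 passed it: Prupe.2G176900 (PpACS1, an ACC synthase), Prupe.3G209900 (PpACO1, an ACC oxidase) and Prupe.6G157500 (PpYUC11, a flavin monooxygenase). All of the fruit had been held at 5 °C for 2 days, then divided at random and stored at 25 °C or at 35 °C. Flesh was sampled on days 1, 2, 3, 5, 6 and 7 of storage, with 2 libraries for each temperature and day, 24 in all. The labels used here name no cultivar and do not say whether the libraries of a group came from separate fruit.

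Ethylene is made from S-adenosylmethionine, which ACC synthase turns into 1-aminocyclopropane-1-carboxylate (ACC) and ACC oxidase then turns into ethylene. In climacteric fruit such as peach, ripening brings a burst of ethylene that promotes its own synthesis, and PpACS1 and PpACO1 are the members of their families that are linked to it. Flavin monooxygenases of the YUCCA family make the auxin indole-3-acetic acid from indole-3-pyruvate. Auxin rises late in the ripening of melting-flesh peach, and low PpYUC11 expression is known from stony hard peaches, which make little ethylene.

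Levels are given in FPKM, the fragments per kilobase of transcript relative to the mapped fragments, so that genes can be compared per length. A gene has 12 values, a single one per temperature and sampling day that stands for 2 libraries, so no value has a replicate error. The read depth behind the values is unknown; summed over all identifiers, FPKM lay between 651850 and 882184 per column. The 25 and 35 °C values lie in separate tables. No source used here says whether these were normalized together, so a factor between the tables and the temperature cannot be told apart. All 12 columns were rescaled together by factors between 0.922 and 1.06. Differences are on the scale of log2(FPKM + 1), on which a difference of 1 is called 2-fold. The tables pair identifiers with no product names, so neither markers of flesh nor the other genes of ethylene and auxin synthesis could be looked up. Flesh is a mixture of cells, and in all results below fewer expressing cells and less RNA per cell cannot be told apart.

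One feature of the tables bears on every PpYUC11 value. Prupe.6G157500 has the same FPKM as Prupe.6G157400, the identifier with the preceding number, in all 12 columns. Each of these identifiers has 1 row in each table. The pair counts as 1 measurement, and the share of each identifier in it is uncertain. Neither PpACS1 nor PpACO1 shared its values with another identifier.

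PpACS1, which makes ACC, began storage among the abundant transcripts and was higher at 25 °C on each day, while at 35 °C it was low from day 2 onward. At 25 °C its level was 804 FPKM on day 1, 719 FPKM on day 2, 463 FPKM on day 3, 178 FPKM on day 5, 629.8 FPKM on day 6 and 349 FPKM on day 7. At 35 °C it was 544 FPKM on day 1 and then 93.4, 126, 107, 41.4 and 83.2 FPKM on days 2, 3, 5, 6 and 7. The 5 values of days 2 to 7 at 35 °C all lay below the lowest value at 25 °C, that of day 5, whereas day 1 at 35 °C had the fourth highest level of the 12. Over days 2 to 7, such a complete separation with 35 °C lower was found in 7.06% of all tested genes, a comparison added after the values had been seen. The course at 25 °C was uneven: the log2 step was -1.38 from day 3 to day 5 and 1.82 from day 5 to day 6. That second step was larger than the step of 99.8% of tested genes, while the median gene moved by 0.01. With 1 value a day, it was not tested whether day 5 differs from its neighbours. PpACS1 ranked 116th by FPKM among tested genes on day 1 at 25 °C and 2529th on day 6 at 35 °C.

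PpACO1, which releases ethylene from ACC, was one of the most abundant transcripts of the flesh in every column, ranking between the 2nd and the 15th. At 25 °C its level was 6360.2 FPKM on day 1, 16127 FPKM on day 2, 12828 FPKM on day 3, 10686.5 FPKM on day 5, 9887 FPKM on day 6 and 13243 FPKM on day 7. At 35 °C the level was 4527 FPKM on day 1, 10096 FPKM on day 2, 4435 FPKM on day 3, 5323 FPKM on day 5, 5154 FPKM on day 6 and 3874 FPKM on day 7. Both temperatures thus had their peak on day 2, at 2.54 times the day 1 level at 25 °C and 2.23 times at 35 °C. Afterwards the 25 °C values stayed above day 1, at 1.55 to 2.08 times its level. Those at 35 °C went back to 0.856 to 1.18 times the day 1 level. The groups overlapped on days 2 to 7 only through day 2 at 35 °C, which was higher than day 6 at 25 °C.

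PpYUC11, of the auxin pathway, was the least abundant of the 3 on most days and the one with its day 1 value below all later values at both temperatures. At 25 °C the level was 42.2 FPKM on day 1, 176 FPKM on day 2, 113 FPKM on day 3, 201 FPKM on day 5, 201 FPKM on day 6 and 205 FPKM on day 7. At 35 °C it was 24.3 FPKM on day 1, 54.3 FPKM on day 2, 113 FPKM on day 3, 97.5 FPKM on day 5, 95.6 FPKM on day 6 and 86.2 FPKM on day 7. At 25 °C the late values formed a plateau, with a mean of 202 FPKM over days 5, 6 and 7 (SD between days 2.39, n = 3). At 35 °C the highest value came on day 3, and the late mean was 93.1 FPKM (SD between days 6.07, n = 3). On day 3 the temperatures had nearly the same level, after the 25 °C value had dropped from day 2 and the 35 °C value had doubled.

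**Figure D1:**
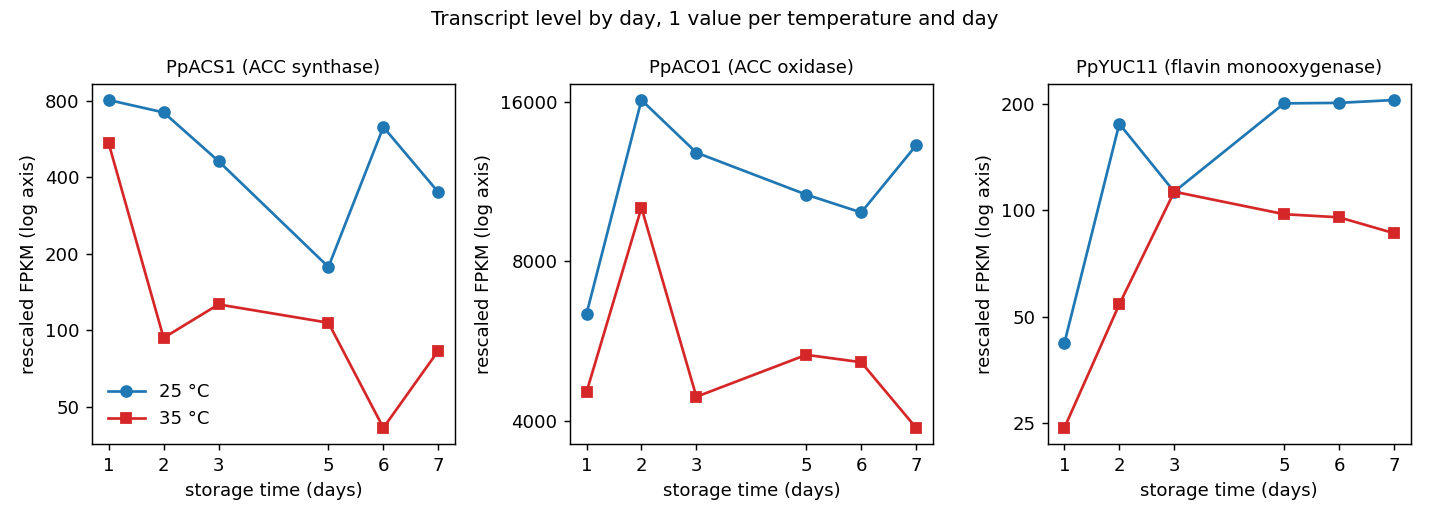
Transcript level in rescaled FPKM (log axis) against storage time in days for PpACS1, PpACO1 and PpYUC11. Each point is the single value of 1 temperature and day, circles for 25 °C and squares for 35 °C; PpACS1 at 35 °C drops from 544 to 93.4 FPKM between days 1 and 2, and the PpYUC11 curves meet at 113 FPKM on day 3.

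The order of the 12 levels differed between the genes. For PpACS1 the highest values were those of days 1, 2 and 6 at 25 °C, followed by day 1 at 35 °C. For PpACO1 they were days 2, 7 and 3 at 25 °C, and for PpYUC11 days 7, 6 and 5 at 25 °C. The lowest value of each gene was at 35 °C, on day 6 for PpACS1, day 7 for PpACO1 and day 1 for PpYUC11. Neighbours in these orders could not be told apart by a test, because there is no spread within a group.

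Per length, PpACO1 was always the most abundant of the 3, and its distance from PpACS1 varied widely. The ratio of PpACO1 to PpACS1 was 7.91 at 25 °C and 8.33 at 35 °C on day 1. Later it lay between 15.7 and 60.2 at 25 °C, and between 35.1 on day 3 and 125 on day 6 at 35 °C. On day 2 it was 22.4 at 25 °C and 108 at 35 °C, where PpACO1 was at its peak and PpACS1 had already dropped. PpACS1 exceeded PpYUC11 by 19.1 times on day 1 at 25 °C and by 22.4 times on day 1 at 35 °C. At 35 °C that ratio was 1.72 on day 2 and 0.433 to 1.12 from day 3 to day 7. At 25 °C it was lower after day 1 as well, at 4.09, 4.10, 0.885, 3.13 and 1.70 on days 2, 3, 5, 6 and 7.

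How storage temperature bears on these genes was asked first day by day. On day 1 all 3 genes were already lower at 35 °C, by less than 2-fold: the log2 difference was -0.56 for PpACS1, -0.49 for PpACO1 and -0.77 for PpYUC11. Among tested genes, 7.91%, 9.60% and 5.04% had a lower difference on that day, and 3.35% were at least 2-fold lower. On day 2 the difference was -2.93 for PpACS1, -0.68 for PpACO1 and -1.68 for PpYUC11, on a day when 11.6% of genes were at least 2-fold lower at 35 °C. On day 3 it was -1.86 for PpACS1 and -1.53 for PpACO1, against 6.91% of genes at least 2-fold lower, and 0.00 for PpYUC11.

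On day 5 the PpACS1 difference shrank to -0.72, through the low 25 °C value of that day, while PpACO1 and PpYUC11 were at -1.01 and -1.03 with 7.41% of genes at least 2-fold lower. The largest difference of the 3 genes on any day was that of PpACS1 on day 6, -3.90, or 15.2 times more at 25 °C. Only 0.0259% of tested genes had a lower difference on day 6, and 5.78% were at least 2-fold lower. PpACO1 and PpYUC11 then stood at -0.94 and -1.07. On day 7 all 3 were at least 2-fold lower at 35 °C, with -2.06, -1.77 and -1.24 for PpACS1, PpACO1 and PpYUC11, beside 4.75% of all genes. These are differences of single values and have no test.

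PpACS1 and PpYUC11 were each at least 2-fold lower at 35 °C on 4 of 6 days, and 2.35% of tested genes reached at least 4 such days. PpACO1 reached 3 such days. These counts depended on the scaling: PpYUC11 reached 3 such days with FPKM as deposited and 2 after quantile normalization, and PpACO1 reached 2 and 1, while PpACS1 reached 4 under both. PpACS1 and PpACO1 were lower at 35 °C on 6 of 6 days, as were 9.36% of tested genes, and PpYUC11 on 5 of 6. The sign of 2 of the small differences changed with the scaling as well: PpYUC11 on day 3 was -0.04 as deposited and 0.23 after quantile normalization, which turned PpACO1 on day 2 to 0.16.

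**Figure D2:**
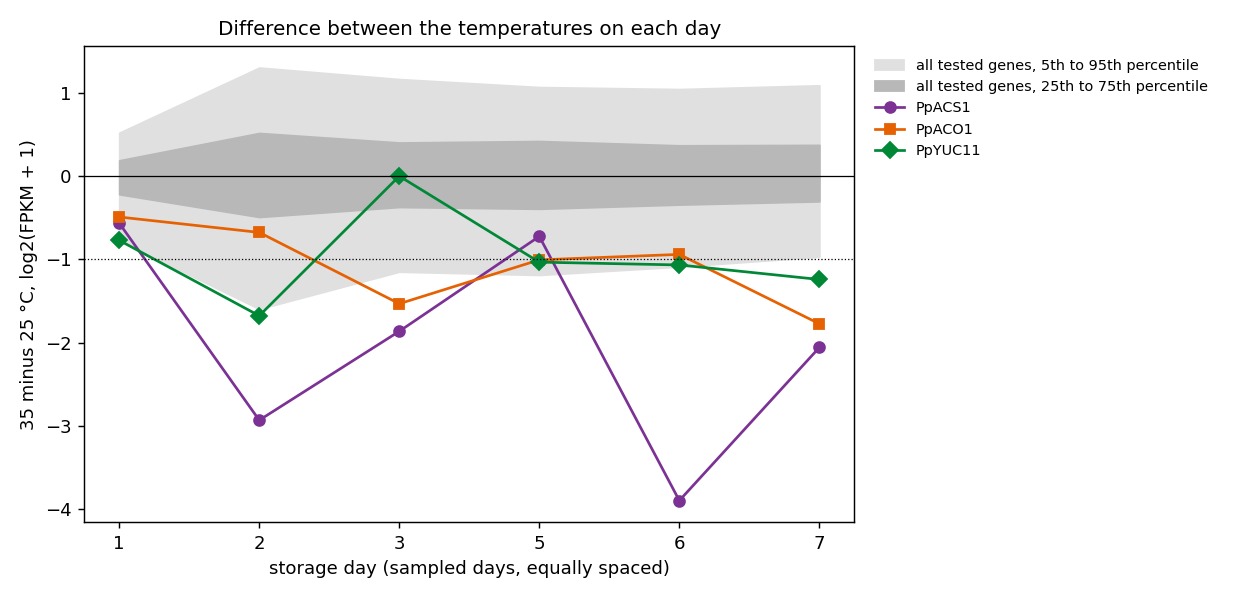
Difference between 35 and 25 °C in log2(FPKM + 1) on each sampled day for the 3 genes (lines), with the range of all 15420 tested genes behind them (light grey 5th to 95th percentile, dark grey 25th to 75th). The dotted line marks 2-fold lower at 35 °C. PpACS1 lies below the light band on days 2, 3, 6 and 7, PpACO1 on days 3 and 7, and PpYUC11 on days 2 and 7. PpYUC11 is at 0.00 on day 3.

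The mean effect of temperature was tested with limma over the 12 columns, with a term for each day. Its error is therefore taken from how much the difference varied over the 6 days, not from how much fruit varied. Limma also moves the error of each gene toward that of genes at a similar level, here and below. The p-values over days, here and below, treat the days as independent, although they follow each other in time. PpACS1 was lower at 35 °C, where its mean was 166 FPKM against 524 FPKM at 25 °C. Its log2 difference was -2.01 ± 0.41 (limma SE over 6 days, limma adjusted p = 0.0265), and 0.337% of tested genes had a lower one. PpYUC11 was lower as well, with means of 156 and 78.5 FPKM and a log2 difference of -0.96 ± 0.21 (SE, limma adjusted p = 0.0285). PpACO1 had means of 11522 and 5568 FPKM and a log2 difference of -1.07 ± 0.30 (SE), which narrowly missed the threshold of 0.05 (limma adjusted p = 0.0511, 95% interval -1.75 to -0.39). From the 6 differences of each gene alone, the SE was 0.52 for PpACS1, 0.20 for PpACO1 and 0.23 for PpYUC11. PpACO1 thus varied least over days of the 3, although it was not called. So 2 of the 3 genes were called lower, where 5.78% of all tested genes were.

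An exact two-sided sign-flip permutation test of each gene alone over the 6 days gave p = 0.0312 for PpACS1 and for PpACO1, the smallest that 6 days can give, and p = 0.0625 for PpYUC11. These p-values are not adjusted over genes. Any gene lower at 35 °C on all 6 days, as 9.36% were, has that smallest p. The PpYUC11 value was set by its day 3 difference of 0.00, as its other differences were all negative. This test used the rescaled values only. The signs of that difference and of the PpACO1 difference on day 2 changed with the scaling, as given above. Without day 1 the differences were -2.29 for PpACS1, -1.19 for PpACO1 and -1.0 for PpYUC11, and all 3 were called (limma adjusted p = 0.00907, 0.0332 and 0.0255). Without any one of days 2, 3, 5, 6 or 7 none of the 3 was called, while every difference stayed negative. The limma adjusted p was then 0.0610 to 0.0819 for PpACS1, 0.0654 to 0.0833 for PpYUC11 and 0.0865 to 0.154 for PpACO1. Among all tested genes, 1849 were called in either direction with all days and 3006 without day 1. Without days 2, 3, 5, 6 and 7 the counts were 211, 0, 0, 1 and 129. The 3 genes thus went uncalled where few or no genes were called, so these losses do not single them out. After quantile normalization the PpACO1 difference was -0.67 (limma adjusted p = 0.200), and the PpYUC11 difference was -0.74 and not called (limma adjusted p = 0.0552).

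The change from day 1 to the mean of days 2 to 7 was tested at each temperature in 4 groups of columns. Day 1 is 1 column at each temperature, so its own spread was not measured, and every p-value here assumes that it varies like the later days. Under that assumption PpYUC11 was called higher after day 1 at both temperatures, by 2.03 ± 0.39 on the log2 scale at 25 °C (SE, limma adjusted p = 0.0205) and by 1.80 ± 0.39 at 35 °C (SE, limma adjusted p = 0.0142). A rise was called for 0.843% of tested genes at 25 °C and for 5.84% at 35 °C. Under the same assumption PpACS1 was called lower after day 1 at 35 °C, with a fitted change of -2.67 ± 0.68 on the log2 scale (SE, limma adjusted p = 0.0264), where 7.06% of genes were called as falling. At 25 °C its change was -0.94 ± 0.68 and not called (limma adjusted p = 0.598), and 2.65% of genes were called as falling.

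PpACO1 was not called at either temperature, with a change of 0.96 ± 0.57 at 25 °C (SE, limma adjusted p = 0.474) and 0.26 ± 0.57 at 35 °C (SE, limma adjusted p = 0.797). Its 95% intervals, -0.28 to 2.20 and -0.97 to 1.5, include a rise of more than 2-fold. The calls depended on single days: the PpYUC11 call at 25 °C was lost without day 5, 6 or 7 (limma adjusted p = 0.0548 to 0.0614), and the PpACS1 call at 35 °C without day 3 or 7 (limma adjusted p = 0.0519 and 0.0563).

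**Figure D3:**
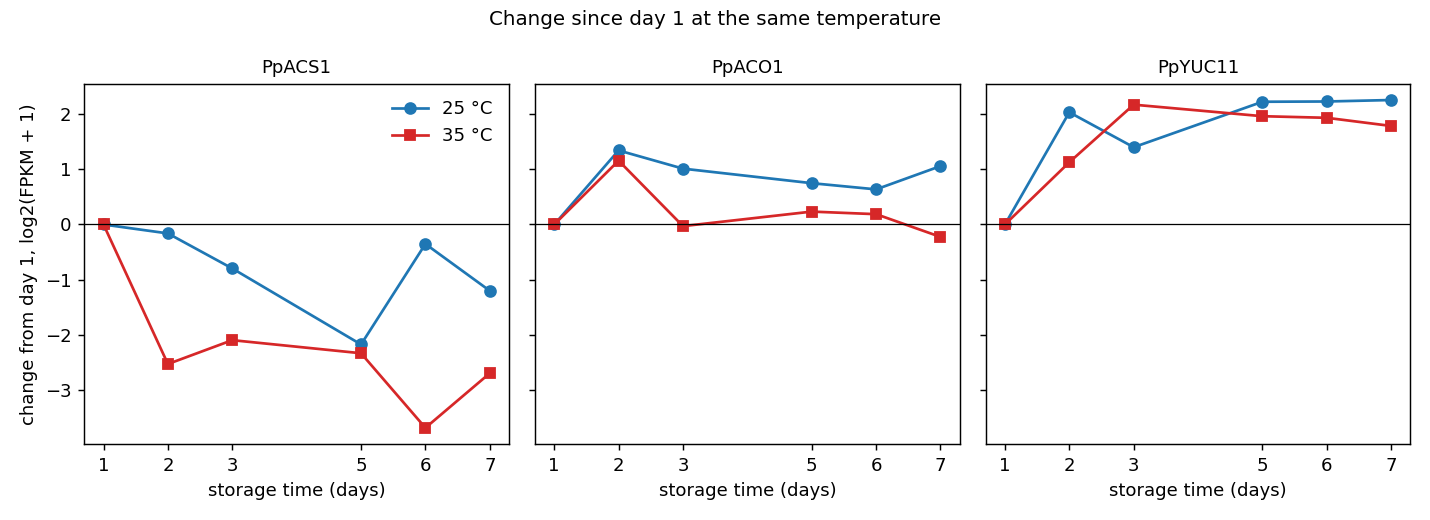
Change in log2(FPKM + 1) since day 1 at the same temperature, against storage time in days (circles 25 °C, squares 35 °C, 1 value each). PpACS1 at 35 °C has changes between -3.68 and -2.10 on every later day, PpACO1 returns to near its day 1 level at 35 °C after day 2, and PpYUC11 is above day 1 on every later day at both temperatures.

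Whether these changes differed between the temperatures was tested as their difference, which uses all 12 columns. The PpACS1 change was more negative at 35 °C by -1.73 on the log2 scale, but the difference was not called (limma adjusted p = 0.750, 95% interval -3.83 to 0.37). For PpACO1 the difference was -0.69 (95% interval -2.45 to 1.06) and for PpYUC11 -0.23 (95% interval -1.45 to 0.98), neither called (limma adjusted p = 0.933 and 0.979). In limma, 0% of genes were called for this difference, and 1207 of 15420 reached an unadjusted p under 0.05. A PpACS1 change that was called at 35 °C and not at 25 °C is therefore not shown to differ between them.

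**Figure D4:**
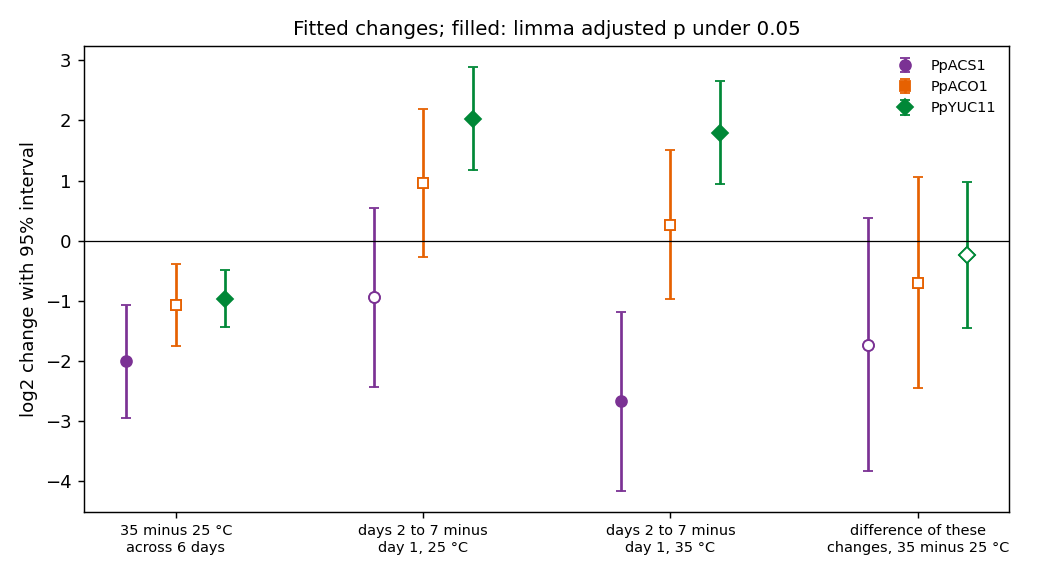
Fitted log2 changes of the 3 genes with 95% intervals from limma, for the mean temperature difference over 6 days, the change from day 1 to days 2 to 7 at each temperature, and the difference of those changes. Filled symbols have an adjusted p under 0.05; the temperature difference is filled for PpACS1 at -2.01 and PpYUC11 at -0.96, and no difference of changes is filled. Day 1 is a single column in the changes from day 1.

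Late storage, days 5, 6 and 7, was also compared with days 1, 2 and 3. None of the 3 genes was called at either temperature. At 25 °C the log2 change was -0.92 for PpACS1 (limma adjusted p = 0.593), 0.03 for PpACO1 (limma adjusted p = 0.984) and 1.09 for PpYUC11 (limma adjusted p = 0.487). At 35 °C it was -1.36 for PpACS1 (limma adjusted p = 0.619), -0.31 for PpACO1 (limma adjusted p = 0.920) and 0.79 for PpYUC11 (limma adjusted p = 0.760). Across the tested genes 0% were called at 25 °C and 0.00649% at 35 °C, while 1614 and 1294 reached an unadjusted p under 0.05. Differences of these changes between the temperatures were -0.44, -0.34 and -0.30 for PpACS1, PpACO1 and PpYUC11, each with a limma adjusted p of 1.00. Their 95% intervals were -2.45 to 1.57, -1.84 to 1.16 and -1.97 to 1.37, with 0% of genes called and 471 at an unadjusted p under 0.05.

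The 3 genes had different courses. Over the 12 columns, Pearson's r of log2(FPKM + 1) was 0.48 between PpACS1 and PpACO1, 0.57 between PpACO1 and PpYUC11 and -0.00 between PpACS1 and PpYUC11. Among identifiers that reached 10 FPKM in some column, 26.3% had a higher r with PpACS1 than PpACO1 had. For PpYUC11 with PpACS1 that share was 55.7%, and for PpYUC11 with PpACO1 it was 10.7%. Within the 6 days at one temperature, PpACS1 and PpACO1 had r = -0.21 at 25 °C and -0.19 at 35 °C. PpACS1 and PpYUC11 had r = -0.51 and -0.80, and PpACO1 and PpYUC11 had 0.73 and -0.16. By ranks (Spearman's rho) the values at 25 and 35 °C were -0.26 and -0.09 for PpACS1 and PpACO1. They were -0.60 and -0.09 for PpACS1 and PpYUC11, and 0.31 and -0.14 for PpACO1 and PpYUC11. The r of -0.80 at 35 °C and of 0.73 at 25 °C thus did not hold by ranks. The columns follow each other in time and are not independent, so that these values are descriptions without a p-value.

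The identifiers most alike in pattern to each gene were sought by Pearson's r over the 12 columns among those that reached 10 FPKM in some column. For PpACS1 these were Prupe.3G098200 (r = 0.95), Prupe.8G265200 (0.94) and Prupe.6G109000 (0.94). By Spearman's rho they stood 24th, 228th and 1st, at 0.90, 0.82 and 0.97. The 25 °C mean of Prupe.3G098200 was 7.82 FPKM and its 35 °C mean 2.69 FPKM. It went from 10.8 FPKM on day 1 at 35 °C to 1.36 FPKM on day 2. Its later values there went down to 0.948 FPKM, near the 1 FPKM of the filter. Each of the named identifiers had its lowest 25 °C value on day 5, like PpACS1. From day 3 to day 5 at 25 °C Prupe.3G098200 went from 9.71 to 3.70 FPKM and Prupe.8G265200 from 84.6 to 53.2 FPKM. Prupe.6G109000 went from 7.44 to 6.65 FPKM. An r of at least 0.9 with PpACS1 was found for 36 of 9532 identifiers.

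For PpACO1 the most alike were Prupe.1G355800 (r = 0.96), Prupe.8G073100 (0.95) and Prupe.4G115800 (0.95). Each of them was lower at 35 °C on 6 of 6 days. Prupe.1G355800 had means of 219 and 132 FPKM at 25 and 35 °C, with its highest value at each temperature on day 2, 292 FPKM and 198 FPKM. With PpACO1, 11 of 9532 identifiers had an r of at least 0.9.

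For PpYUC11, leaving out the identifier with the same values, they were Prupe.2G099900 (r = 0.94), Prupe.1G311700 (0.93) and Prupe.1G411700 (0.93), and 11 of 9531 identifiers reached 0.9. Prupe.2G099900 went from 16.7 FPKM on day 1 to 268 FPKM on day 7 at 25 °C, and from 13.5 to 53.0 FPKM at 35 °C. Unlike PpYUC11 it was lower at 35 °C on day 3 as well, at 58.4 FPKM against 82.5 FPKM. Within one temperature, r with the named identifiers was 0.80 to 0.89 at 25 °C and 0.89 to 0.94 at 35 °C for PpACS1. It was 0.86 to 0.91 and 0.86 to 0.91 for PpACO1, and 0.90 to 0.94 and 0.94 to 0.96 for PpYUC11. These identifiers were picked for their likeness, which therefore has no test.

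**Figure D5:**
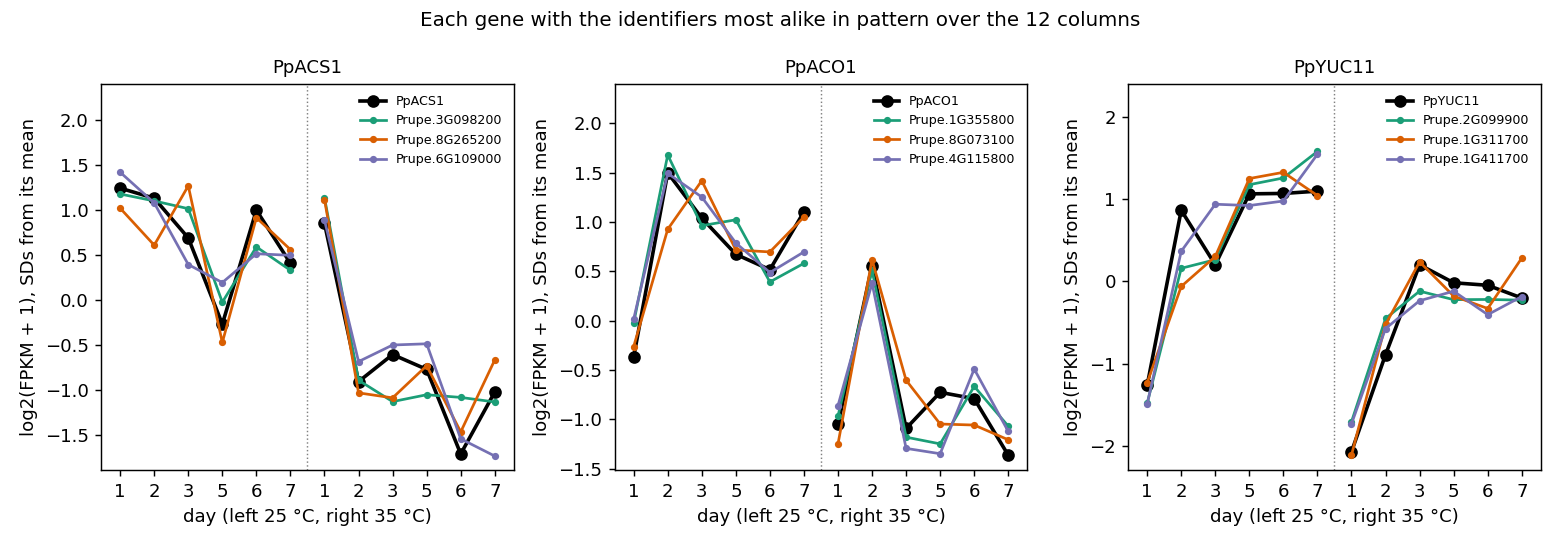
Log2(FPKM + 1) of each gene (black) and of its 3 most alike identifiers (colours), as SDs from the gene's own mean over the 12 columns, by day at 25 °C (left of the dotted line) and 35 °C (right). The PpACS1 panel shows the shared low values from day 2 at 35 °C, the PpACO1 panel the day 2 peaks at 35 °C, and the PpYUC11 panel the low day 1 at both temperatures.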

How the data were processed

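The authors deposited FPKM values in 2 tables, one per temperature, with 6 day columns each (per the file headers). Libraries were strand-specific and depleted of ribosomal RNA, per the labels' protocols. Cufflinks 2.1.1 and TopHat2 2.0.10, and further Bowtie2 2.1.0, FastQC 0.10.1 and SAMtools 0.1.18, are named with no role in the submitters' processing notes. Not given in the sources used here are the genome build, the annotation, and how the 2 libraries of a group became 1 value. Low FPKM values showed no common step that would give read numbers.

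FPKM were summed per identifier (the 3 genes have 1 row each) and divided by a factor per column, the median ratio to the geometric mean of the 12194 identifiers that exceed 1 FPKM everywhere. Identifiers with at least 1 FPKM in at least 2 columns were tested with limma 3.58.1 in R 4.3.3, with eBayes' mean trend, on log2(FPKM + 1). P-values were adjusted by Benjamini-Hochberg over all 15420, called under 0.05, and measure the spread between days. In them each gene's error is moved toward that of genes at a similar level. Genes most alike were the 3 with the highest Pearson's r, identical values counted once. None of the 26873 identifiers matched the RefSeq table by identifier (0 matched), so 18 pathway and tissue lists by product description could not be used, and no sequence is shown. The genes, lists and tests were chosen with earlier results of these data known.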

Additional observations from a re-analysis of the deposited data

How the results depend on the processing

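No paired analysis was possible because no column name holds a replicate number, except by day, as in the temperature comparison. Days were left out in turn. For 35 against 25 °C, all 3 genes had a lower mean in each alternative. With no filter on low values PpACS1 (-2.01) and PpYUC11 (-0.96) lost the call (limma adjusted p = 0.0548 and 0.0534), as did PpYUC11 with quantile normalization (-0.74) and in the exact sign-flip test (-0.96). PpACO1 passed with a pseudocount of 0.1 (-1.07), among genes whose mean reached 5 FPKM (-1.07) and in the sign-flip test (-1.07). With no filter it stayed uncalled at the same difference, with a larger limma SE of 0.65 (limma adjusted p = 0.337). With 1 day left out the differences ranged from -2.29 to -1.63 for PpACS1, -1.19 to -0.93 for PpACO1 and -1.16 to -0.82 for PpYUC11.

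Of the changes from day 1 to days 2 to 7, no call of the 3 genes changed in the alternatives other than leaving out a day. Without 1 day the PpYUC11 change at 25 °C was 1.97 to 2.19 and the PpACS1 change at 35 °C -2.81 to -2.41. Day 1 cannot be left out of this comparison. With 1 day left out, late minus early changes that were not called turned sign: PpACO1 ranged from -0.36 (without day 1; -0.09 without day 7) to 0.31 at 25 °C and from -0.51 to 0.080 (without day 2) at 35 °C. Quantile normalization gave PpACO1 0.57 at 25 °C. With 1 day left out, the difference between temperatures ranged from -1.19 to 0.40 (without day 6; 0.17 without day 1) for PpACS1 and from -0.73 to 0.11 (without day 3) for PpYUC11.

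The number of genes called, the background of each comparison, moved more. For 35 against 25 °C, 1849 became 397 with no filter, 1216 where the mean had to reach 5 FPKM, and 0 (without day 3 or 5) to 3006 (without day 1) with 1 day left out. For days 2 to 7 against day 1 at 25 °C, 538 became 1138 with no filter, 181 under the stricter filter, 168 for a pseudocount of 0.1 and 173 to 1387 without 1 day. At 35 °C, 1988 became 1135 with the stricter filter and 1023 to 2775 without 1 day. Their difference had 258 calls with no filter and 0 to 8 without 1 day, against 0. Late minus early at 25 °C had 4 calls with no filter, 2 each for separate rows and for FPKM as deposited, 1 for the stricter filter and 0 to 126 without 1 day. At 35 °C there were 4 each for quantile normalization and for FPKM as deposited, 3 for the stricter filter, 2 each for no filter and for a pseudocount of 0.1, 0 for separate rows and 0 to 72 without 1 day. The difference had 1 call with no filter. Genes at least 2-fold apart on a day numbered 1014, 3174, 2784 and 2776 on days 1, 5, 6 and 7 with a pseudocount of 0.1, and 415 on day 1 with the stricter filter. By Spearman's rho the most alike identifiers were Prupe.6G109000 for PpACS1, Prupe.1G136900 for PpACO1 and Prupe.1G042500 for PpYUC11, at 0.97, 0.96 and 0.98. The causes were not tested, and what read depth limits is unknown.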
